A study of Mus musculus with 8 samples.

Results

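The 44 mouse genes described here encode the glucose and lactate transporters, the enzymes of glycolysis and their regulators, the gate into mitochondrial pyruvate use, the hypoxia-inducible factor (HIF) control genes and a set of classical HIF targets. They were chosen by function, with earlier results of these data known, and matched by symbol. All 44 were found in both deposited gene tables, which together hold 19805 symbols, 16226 of them in both. The RNA came from wild-type (WT) mouse cells in 4 groups of 2 libraries: lung group 2 innate lymphoid cells (ILC2s, tissue lymphocytes that make type 2 cytokines without an antigen receptor) labelled co-cultured, lung ILC2s labelled alone, spleen CD8 T cells labelled co-cultured, and spleen CD8 T cells labelled alone. In co-culture the design text gives CD8 T cells and ILC2s at 5:1 for 3 days, followed by isolation by flow cytometry. The cells cultured on their own served as the controls and carry the label untreated. The title frames the study around ILC2s that present antigen to CD8 T cells. The labels give no age, sex, medium or oxygen level, and they do not say whether the replicates are separate cultures or animals. The p-values therefore rest on the spread between the 2 libraries of each group, pooled in large part over all genes, and that spread may be technical.

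Glycolysis turns glucose into pyruvate in the cytosol, and lactate dehydrogenase turns pyruvate into lactate, which leaves through monocarboxylate transporters. Activated lymphocytes are known for raising this pathway, and HIF transcription factors raise many of its genes when oxygen is low. HIF alpha subunits are hydroxylated by the EGLN prolyl hydroxylases in the presence of oxygen, are then bound by the VHL ubiquitin ligase and degraded, and otherwise pair with ARNT and bind DNA at a short core sequence. Several of the brakes on HIF, among them Egln1 and Egln3, are themselves HIF targets, and HIF activity is set largely at the protein level, which RNA does not show.

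Libraries held 48072595 to 67076905 counted reads. Values below are CPM (reads scaled by the library total) for each library, in replicate order. Log2 changes are co-cultured over alone from edgeR's quasi-likelihood test after TMM scaling, with standard error (SE), and a gene was called when its Benjamini-Hochberg adjusted p over all genes tested was under 0.05. CD8 libraries carried all 14 genes of a T cell marker list, summing to 8648 to 8824 CPM co-cultured and 6991 to 7181 CPM alone. ILC2 libraries carried 19 of 20 ILC2 markers, without Ptgdr2, summing to 13001 to 13146 CPM in libraries labelled co-cultured and 5432 to 5449 CPM in those labelled alone. In the same libraries the T cell list (14 of 14 in the table, 13 lower and 1 higher) summed to 448 to 536 CPM in libraries labelled co-cultured and 2089.9 to 2221 CPM in those labelled alone. The stroma and epithelium list (14 of 17, 12 lower and 2 higher; Col3a1, Pdgfra and Cdh5 not in the table) summed to 352 to 360.5 CPM labelled co-cultured and 7845 to 8491 CPM labelled alone. The macrophage and monocyte list (7 of 14, all 7 lower; Mertk, Fcgr1, C1qa, C1qb, C1qc, Mrc1 and Marco not in the table) summed to 90.6 to 107 CPM labelled co-cultured and 578 to 590 CPM labelled alone. The ILC2 libraries labelled alone thus carried more RNA of the T cell, stroma and macrophage lists than those labelled co-cultured. The labels give the libraries labelled alone as ILC2s cultured without CD8 T cells. The most abundant T cell list genes in the ILC2 libraries were Lck and Trbc2. Whether ILC2s or other cells made this RNA was not tested. In bulk RNA, fewer cells of a type and less RNA per cell cannot be told apart. Because of this, each ILC2 change is also given with the 4 ILC2 libraries scaled to their ILC2 marker genes. This lowers every ILC2 log2 change by about 1.46 and moves the median of all genes to -1.47. Such scaling assumes that marker RNA per ILC2 is the same in both groups, which was not tested. The list includes Il5, Il13, Areg and Arg1, and neither scaling is known to be the right one. The part of these markers in the ILC2 results was not tested.

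**Figure D1:**
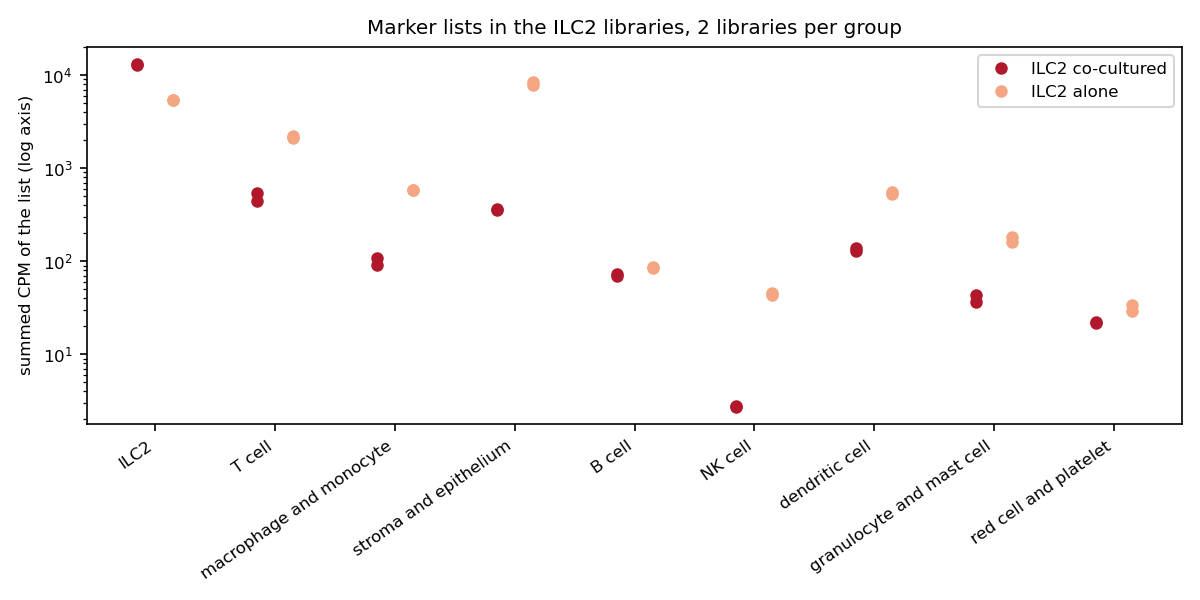
Summed CPM of 9 marker lists in each ILC2 library (log axis, 1 point per library), libraries labelled co-cultured left of those labelled alone in each pair. The ILC2 list is higher in both libraries labelled co-cultured (13001 to 13146 against 5432 to 5449 CPM), and the T cell, macrophage and stroma lists are higher in both labelled alone.

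In ILC2s, 35 of the 44 genes were higher in libraries labelled co-cultured and 2 were lower with TMM scaling, against a background of 31.8% of 16739 tested genes higher and 34.4% lower. The median log2 change of the 44 was 0.94, beside -0.01 over all genes tested. At least 2-fold differences were called for 20 members higher and 1 lower, where 17.6% and 22.7% of all genes passed. Scaled to ILC2 markers, 10 of those 35 stayed higher, 9 were no longer called and 16 were lower, so for 16 members the direction turned with the scaling. Over all 16739 genes, 3.44% were higher and 78.3% lower under that scaling. The 10 that stayed higher were Slc2a3, Gpi1, Pfkm, Aldoa, Aldoc, Vhl, Egln1, Egln3, Mxi1 and Kdm4b. The members' median under that scaling was -0.52, beside -1.47 for all genes.

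In CD8 T cells the same 44 genes split. Co-cultured cells had 18 higher and 16 lower, against 30.2% of 15948 tested genes higher and 30.7% lower, with a median of -0.02 beside -0.01 over all genes. At least 2-fold differences were called for 6 members higher and 2 lower, where 9.61% and 10.7% of all genes passed. The shares of members higher and lower were 40.9% and 36.4%. By role the split was uneven: of the 9 enzymes from triose phosphate to lactate 6 fell and 1 rose, while of the 7 HIF control genes 5 rose and 1 fell. Scaled to the T cell marker list, which moves the median of all genes to -0.16, 17 members were higher and 22 lower, where 23.3% of all genes were higher and 37.8% lower.

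**Figure D2:**
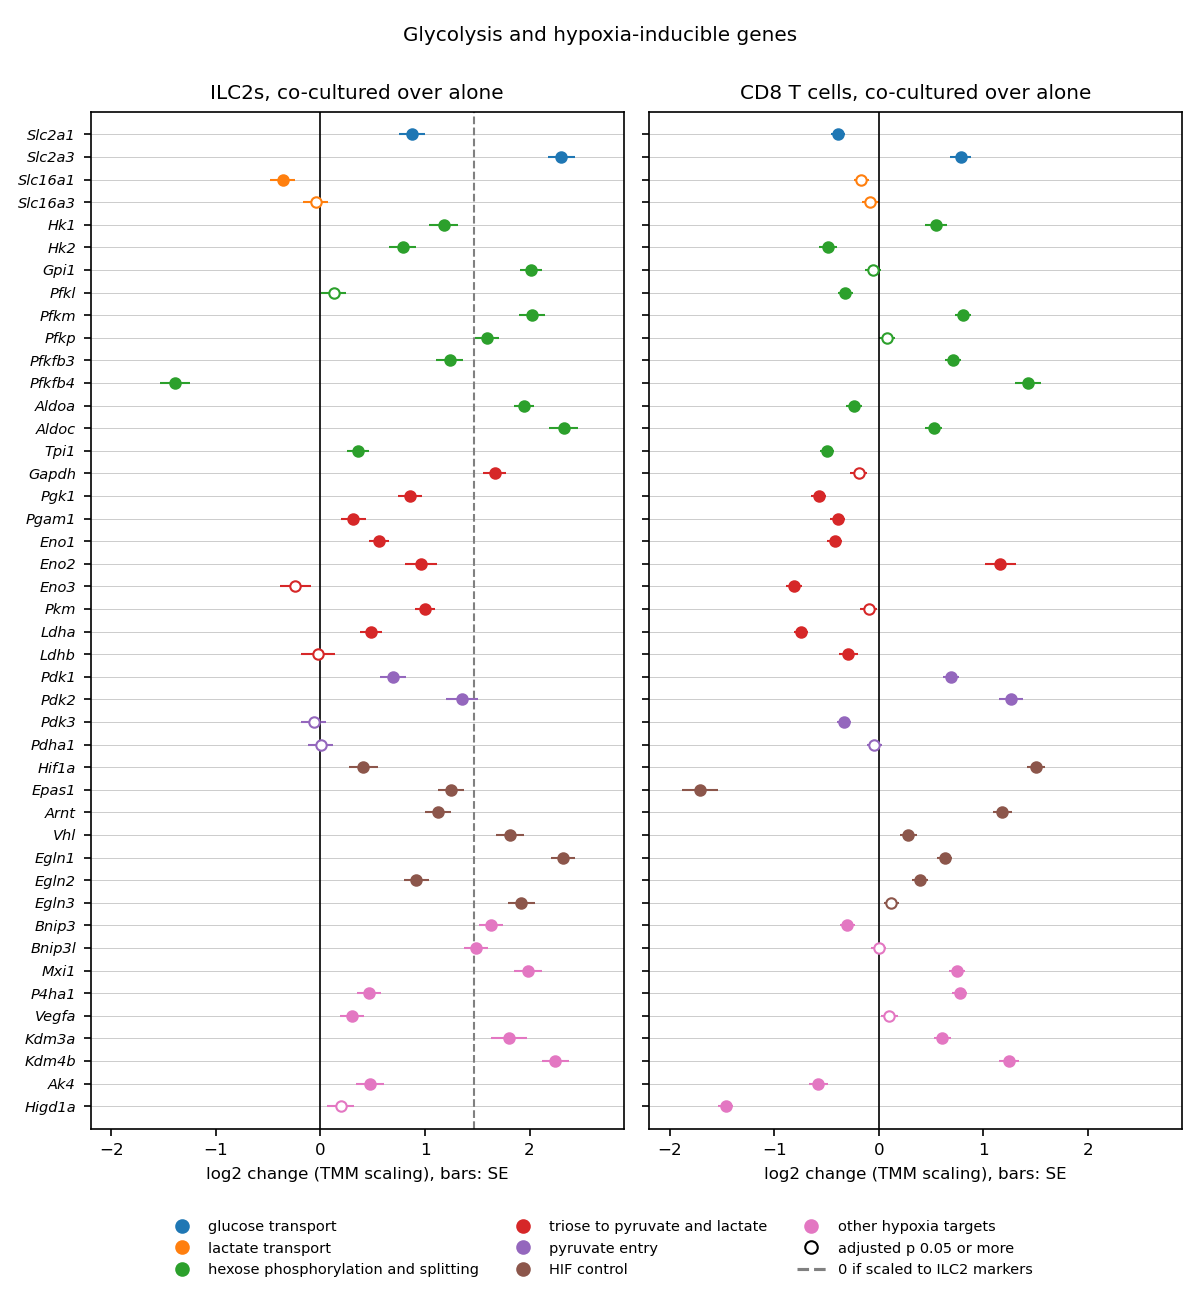
Log2 change of each of the 44 genes, co-cultured over alone (TMM scaling; bars, SE; open points, adjusted p of 0.05 or more), in ILC2s on the left and CD8 T cells on the right, coloured by step. ILC2 points lie mostly right of 0 (35 higher, 2 lower), but only those well right of the dashed line, where 0 falls with ILC2 marker scaling, stay higher under it (10 of 44); CD8 points fall on both sides (18 higher, 16 lower).

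The HIF core motif was counted in the promoters as a description. The members include HIF control genes and genes chosen as classical HIF targets. A higher share of cores than in all promoters may follow from that choice and says nothing about co-culture. Promoters were the 250 bases before each RefSeq start (GRCm38.p6), and 63 promoters of 40 members matched. Windows of nearby starts of the same gene overlap, as for Ak4, Aldoa and Eno1, so the same core can be counted repeatedly. The table gave none for Slc2a3, Epas1, Bnip3l and Kdm4b. The letters searched on both strands were ACGTG and GCGTG. Of the 63 member promoters 41.3% held ACGTG, beside 16.6% of all 32851 promoters in the table, and 54.0% held GCGTG, beside 28.2%. At least 1 of the cores was present in 77.8% of member promoters and in 38.6% of all promoters. Member promoters were also richer in G and C (61.2% against 53.2%), and the shares were not corrected for that. ACGTG overlaps the E-box CACGTG, which MYC family proteins bind and which was present in 12.7% of member promoters and 6.02% of all. A match describes letters in this window and not a bound site. The promoters of 4 genes are shown because they stand for the patterns below: Ldha and Pgk1 (higher in ILC2s with TMM, lower in ILC2s scaled to ILC2 markers, lower in CD8 T cells), Egln1 (higher in both cell types under either scaling) and Pfkfb4 (lower in ILC2s under either scaling, higher in CD8 T cells). They read 5′ to 3′ on the gene's strand, with the cores, read on either strand, in capitals. Both 6-letter capital runs of Ldha are the E-box, which holds ACGTG on both strands. Ldha has another RefSeq start that is not shown.
Ldha, chr7:46845554-46845803, plus strand: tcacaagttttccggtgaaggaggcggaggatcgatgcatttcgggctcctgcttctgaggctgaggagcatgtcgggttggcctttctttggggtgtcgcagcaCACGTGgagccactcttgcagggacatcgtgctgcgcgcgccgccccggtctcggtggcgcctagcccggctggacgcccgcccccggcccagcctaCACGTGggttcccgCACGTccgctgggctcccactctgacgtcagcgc
Pgk1, chrX:106186850-106187099, plus strand: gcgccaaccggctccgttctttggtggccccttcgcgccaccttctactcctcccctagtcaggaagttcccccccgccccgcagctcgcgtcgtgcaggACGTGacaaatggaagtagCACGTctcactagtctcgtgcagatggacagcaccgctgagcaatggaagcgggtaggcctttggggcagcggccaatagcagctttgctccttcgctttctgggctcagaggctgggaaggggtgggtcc
Egln1, chr8:124949255-124949504, minus strand: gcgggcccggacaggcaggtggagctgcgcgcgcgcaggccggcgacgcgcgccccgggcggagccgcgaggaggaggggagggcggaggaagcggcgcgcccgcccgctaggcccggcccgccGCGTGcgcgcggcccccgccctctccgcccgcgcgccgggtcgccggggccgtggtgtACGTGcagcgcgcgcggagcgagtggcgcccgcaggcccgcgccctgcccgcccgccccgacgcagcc
Pfkfb4, chr9:108991652-108991901, plus strand: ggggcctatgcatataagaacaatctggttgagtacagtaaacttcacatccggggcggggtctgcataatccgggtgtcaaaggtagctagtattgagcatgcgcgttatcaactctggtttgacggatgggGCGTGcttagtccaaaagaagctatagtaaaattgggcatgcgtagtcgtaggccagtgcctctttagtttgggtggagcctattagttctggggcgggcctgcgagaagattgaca

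Glucose enters lymphocytes mainly through Slc2a1 (GLUT1) and Slc2a3 (GLUT3, the higher-affinity carrier). Slc2a3 (chromosome 6, 122727809 to 122801640, GRCm38) rose in both cell types. It had 901 and 946 CPM in ILC2s labelled co-cultured, against 199 and 234 CPM in ILC2s labelled alone (log2 change 2.30, SE 0.13, edgeR adjusted p = 3.1e-08; 0.84 scaled to ILC2 markers). It had 2826 and 2782 CPM in co-cultured CD8 T cells, against 1340.0 and 1744 CPM in CD8 T cells alone (log2 change 0.78, SE 0.10, edgeR adjusted p = 2.8e-05). The groups did not overlap in either cell type. Slc2a1 (chromosome 4, 119108711 to 119137983) moved apart from it. Slc2a1 had 730.1 and 732 CPM in ILC2s labelled co-cultured, against 420.0 and 504 CPM in ILC2s labelled alone (log2 change 0.88, SE 0.13, edgeR adjusted p = 7.5e-05), a rise that became a fall scaled to ILC2 markers (-0.59). Slc2a1 fell in CD8 T cells, with 427 and 422 CPM in co-cultured CD8 T cells, against 526 and 529 CPM in CD8 T cells alone (log2 change -0.39, SE 0.066, edgeR adjusted p = 2.0e-04). The make-up of the pair does not depend on scaling, since both are read in the same library. Any RNA of other cell types in the ILC2 libraries enters it, and its part was not tested. Per kilobase of exon, Slc2a3 made up 37.4% and 38.5% of the pair in ILC2s labelled co-cultured, against 18.7% and 18.4% labelled alone. In CD8 libraries it made up 76.2% and 76.1% co-cultured, against 55.2% and 61.5% alone. In both cell types the share of Slc2a3 was higher in both co-cultured libraries than in either library labelled alone. Per kilobase, Slc2a3 was the larger member in all 4 CD8 libraries and the smaller in all 4 ILC2 libraries. That ranking rests on the length of all annotated exons together (7245 bases for Slc2a3, 3506 for Slc2a1). In CPM, Slc2a3 was above Slc2a1 in both ILC2 libraries labelled co-cultured and below it in both labelled alone.

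The lactate carriers did not follow. Slc16a1 (MCT1, which carries lactate and pyruvate either way) was lower in ILC2s labelled co-cultured, at 68.4 to 71.3 CPM against 100.6 to 108 CPM labelled alone (log2 change -0.36, SE 0.12, edgeR adjusted p = 0.021). That call was lost without replicate 2 of the libraries labelled co-cultured (-0.30, adjusted p = 0.076) and without replicate 2 of those labelled alone (-0.31, adjusted p = 0.13). Slc16a1 in CD8 T cells was at -0.17 on the log2 scale with TMM and not called. Slc16a3 (MCT4) is the export carrier of strongly glycolytic cells and a known HIF target. With TMM it was called in neither cell type, with log2 changes of -0.045 (SE 0.12) in ILC2s and -0.080 (SE 0.083) in CD8 T cells. Both carriers were lower in ILC2s scaled to ILC2 markers (Slc16a1 -1.83, Slc16a3 -1.51). They were also lower in CD8 T cells scaled to the T cell marker list (Slc16a1 -0.32, Slc16a3 -0.23).

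The first group of enzymes phosphorylates glucose, converts it to fructose bisphosphate and splits it into trioses. In ILC2s 9 of the 11 genes of this step, the regulators Pfkfb3 and Pfkfb4 included, were higher with TMM scaling and 1 lower, and 4 of the 9 stayed higher scaled to ILC2 markers (Gpi1, Pfkm, Aldoa and Aldoc). In CD8 T cells 5 rose and 4 fell. Over all genes tested, 31.8% were higher and 34.4% lower in ILC2s with TMM, and 3.44% and 78.3% scaled to ILC2 markers. The CD8 shares over all genes were 30.2% higher and 30.7% lower. Summed over the 11, the step held 17657 and 18352 CPM in ILC2s labelled co-cultured, against 7017 and 6972 CPM labelled alone. The CD8 sum was 12838 and 13219 CPM co-cultured, against 13322 and 14484 CPM alone.

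Hk1, the constitutive hexokinase that traps glucose as its phosphate, had 534 and 437 CPM in ILC2s labelled co-cultured, against 260.2 and 239 CPM in ILC2s labelled alone (log2 change 1.18, SE 0.14, edgeR adjusted p = 1.5e-05; -0.29 and not called scaled to ILC2 markers). It rose in CD8 T cells as well, with 467 and 530.4 CPM in co-cultured CD8 T cells, against 284 and 361 CPM in CD8 T cells alone (log2 change 0.55, SE 0.11, edgeR adjusted p = 6.2e-04). Hk2, the inducible hexokinase that binds mitochondria, went opposite ways. Hk2 had 110.4 and 103 CPM in ILC2s labelled co-cultured, against 67.7 and 75.9 CPM in ILC2s labelled alone (log2 change 0.79, SE 0.13; -0.68, a fall, scaled to ILC2 markers). Hk2 had 35.5 and 40.3 CPM in co-cultured CD8 T cells, against 50.5 and 50.1 CPM in CD8 T cells alone (log2 change -0.49, SE 0.087, edgeR adjusted p = 3.1e-04), so both co-cultured libraries lay below both libraries alone. Per kilobase, Hk2 made up 22.8% and 25.2% of the hexokinase pair in ILC2s labelled co-cultured, against 27.1% and 31.2% labelled alone. The CD8 share was 9.81% and 9.80% co-cultured, against 20.2% and 16.6% alone. In both cell types Hk1 therefore held more of the pair in co-cultured libraries. Scaling does not touch this make-up, but any RNA of other cell types in the ILC2 libraries enters it, and its part was not tested.

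Gpi1, which turns glucose phosphate into fructose phosphate, stood out in ILC2s. It had 3002 and 3038 CPM in ILC2s labelled co-cultured, against 855 and 878 CPM in ILC2s labelled alone (log2 change 2.02, SE 0.11, edgeR adjusted p = 2.5e-08; 0.55 scaled to ILC2 markers). It had 2109.8 and 2091 CPM in co-cultured CD8 T cells, against 1969 and 2163 CPM in CD8 T cells alone (log2 change -0.057, SE 0.073, edgeR adjusted p = 0.52), with overlapping groups. Scaled to the T cell marker list, Gpi1 was called lower in CD8 T cells (-0.21). Phosphofructokinase, the main control step of glycolysis, has liver (Pfkl), muscle (Pfkm) and platelet (Pfkp) subunits. Pfkm rose in both cell types, with 81.8 and 83.2 CPM in ILC2s labelled co-cultured, against 23.9 and 23.1 CPM in ILC2s labelled alone (log2 change 2.03, SE 0.12; 0.56 scaled to ILC2 markers). Pfkm had 86.1 and 86.0 CPM in co-cultured CD8 T cells, against 46.3 and 47.0 CPM in CD8 T cells alone (log2 change 0.80, SE 0.074, edgeR adjusted p = 1.1e-06). Pfkp had 1663 and 1577 CPM in ILC2s labelled co-cultured, against 640.3 and 607 CPM in ILC2s labelled alone (log2 change 1.59, SE 0.11, edgeR adjusted p = 2.6e-07; 0.13 and not called scaled to ILC2 markers). Pfkp had 1895 and 1985 CPM in co-cultured CD8 T cells, against 1636 and 1829 CPM in CD8 T cells alone and was not called (0.083, SE 0.077). Pfkl had 377 and 339 CPM in ILC2s labelled co-cultured, against 373 and 389.6 CPM in ILC2s labelled alone, not called with TMM (0.13, SE 0.12) and lower scaled to ILC2 markers (-1.34). It fell in CD8 T cells, with 456 and 476 CPM in co-cultured CD8 T cells, against 529 and 573 CPM in CD8 T cells alone (log2 change -0.32, SE 0.073, edgeR adjusted p = 0.0020). Per kilobase, Pfkl made up 27.5% and 26.2% of the 3 subunits in ILC2s labelled co-cultured, against 50.4% and 52.8% labelled alone. In CD8 libraries it made up 29.0% and 29.1% co-cultured, against 36.8% and 36.3% alone. The liver subunit thus held less of the set in every co-cultured library of either cell type than in any library alone of that type. These shares rest on exon lengths of 6675 bases for Pfkl and 13401 for Pfkp, and in CPM Pfkp was above Pfkl in every library. Any RNA of other cell types in the ILC2 libraries enters the ILC2 shares, and its part was not tested.

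The paired regulators Pfkfb3 and Pfkfb4 make and remove the bisphosphate that activates phosphofructokinase. Pfkfb3, the form with the strongest kinase activity, had 83.5 and 76.4 CPM in ILC2s labelled co-cultured, against 40.0 and 38.9 CPM in ILC2s labelled alone (log2 change 1.23, SE 0.13, edgeR adjusted p = 5.5e-06; -0.23 and not called scaled to ILC2 markers). It rose in CD8 T cells, with 56.0 and 56.2 CPM in co-cultured CD8 T cells, against 32.0 and 32.9 CPM in CD8 T cells alone (log2 change 0.71, SE 0.079, edgeR adjusted p = 5.6e-06). Pfkfb4 (chromosome 9, 108991778 to 109032228) was the member called lower in ILC2s and higher in CD8 T cells. Pfkfb4 had 10.5 and 10.2 CPM in ILC2s labelled co-cultured, against 30.3 and 32.7 CPM in ILC2s labelled alone (log2 change -1.39, SE 0.14, edgeR adjusted p = 4.8e-06; -2.85 scaled to ILC2 markers). It had 31.1 and 29.7 CPM in co-cultured CD8 T cells, against 9.42 and 11.9 CPM in CD8 T cells alone (log2 change 1.43, SE 0.12, edgeR adjusted p = 5.4e-07). Co-cultured CD8 libraries and ILC2 libraries labelled alone thus sat at 29.7 to 32.7 CPM, and the other 4 libraries at 9.42 to 11.9 CPM. Its difference between the cell types was the lowest of the 44 (log2 difference -2.98, SE 0.19, edgeR adjusted p = 2.8e-09).

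Aldolase splits fructose bisphosphate, and Aldoa is the ubiquitous form. Aldoa (chromosome 7, 126795234 to 126800751) had the highest level of any member in the co-cultured ILC2 libraries, with 10069.8 and 10765 CPM in ILC2s labelled co-cultured, against 3127 and 3143 CPM in ILC2s labelled alone (log2 change 1.95, SE 0.10, edgeR adjusted p = 1.6e-08; 0.48 scaled to ILC2 markers). It had 4475 and 4673 CPM in co-cultured CD8 T cells, against 4894 and 5308 CPM in CD8 T cells alone (log2 change -0.24, SE 0.073, edgeR adjusted p = 0.012), a fall whose call was lost without co-cultured replicate 1 (-0.20, adjusted p = 0.12). Aldoc, the brain-type form and a known HIF target, rose in both. Aldoc had 105 and 122 CPM in ILC2s labelled co-cultured, against 23.9 and 28.5 CPM in ILC2s labelled alone (log2 change 2.33, SE 0.14, edgeR adjusted p = 6.0e-08; 0.86 scaled to ILC2 markers). It had 482 and 485 CPM in co-cultured CD8 T cells, against 296 and 339 CPM in CD8 T cells alone (log2 change 0.53, SE 0.079, edgeR adjusted p = 8.1e-05). Per kilobase Aldoc stayed the minor form, at 0.926% and 0.997% of the pair in ILC2s labelled co-cultured, against 0.677% and 0.803% labelled alone. In CD8 libraries it was at 8.77% and 8.47% co-cultured, against 5.12% and 5.39% alone. Tpi1, which interconverts the trioses, changed by 0.36 (SE 0.10) in ILC2s (-1.10, a fall, scaled to ILC2 markers) and fell in CD8 T cells (-0.49, SE 0.069).

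**Figure D3:**
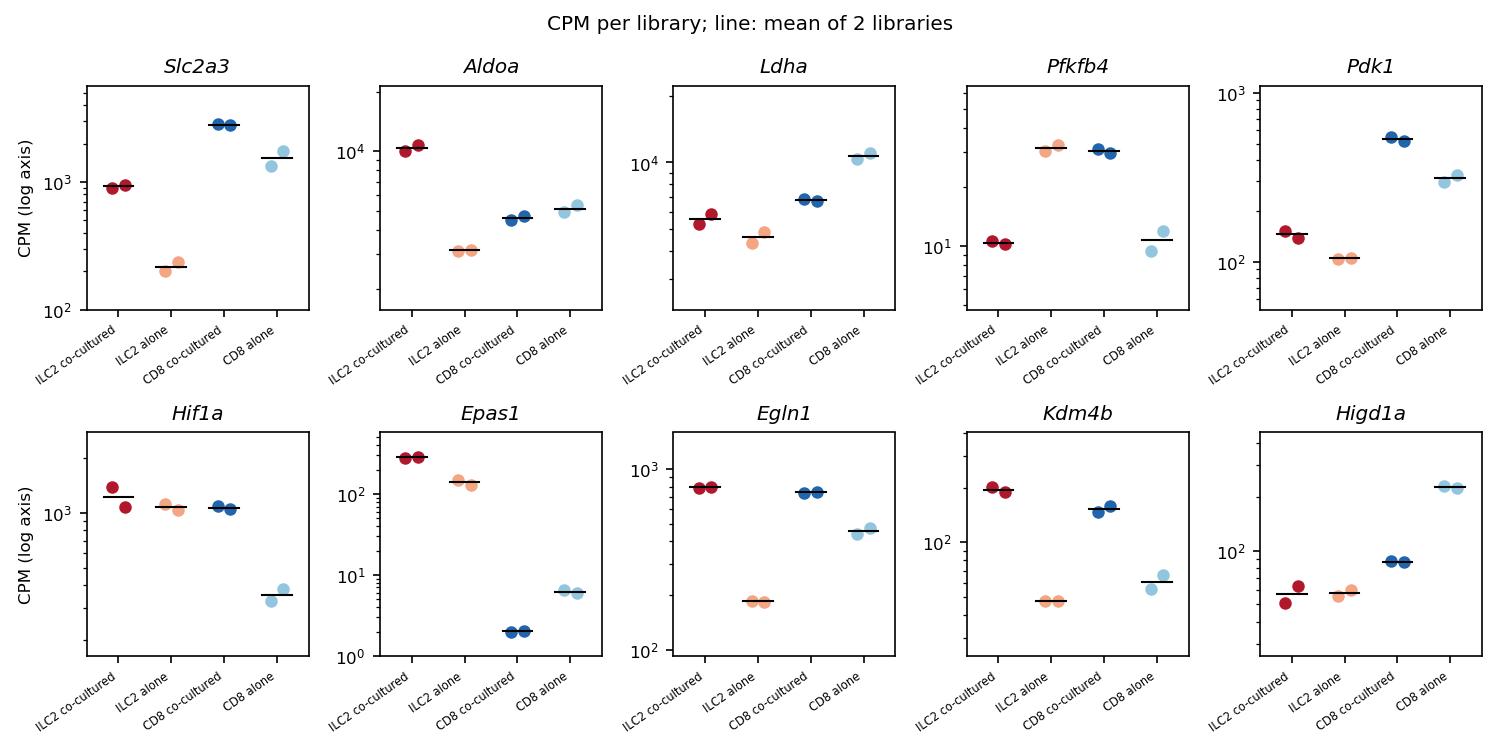
CPM per library of 10 members in the 4 groups (log axis; points, libraries; line, mean of 2), co-cultured left of alone in each cell type. Slc2a3, Egln1 and Kdm4b are higher in co-cultured libraries of both cell types with TMM and marker scaling. Pfkfb4 is lower in ILC2s and higher in CD8 T cells, and Ldha is lower in CD8 T cells. In ILC2s the direction of Ldha, Pdk1 and Hif1a turns with scaling to ILC2 markers, and Epas1 is no longer called.

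The second group of enzymes runs from triose phosphate to pyruvate and lactate and carries the most abundant members. In ILC2s 7 of these 9 genes were higher with TMM scaling and none lower, where 31.8% of all genes were higher and 34.4% lower. None of the 7 stayed higher scaled to ILC2 markers, where Gapdh was not called and the other 6 were lower. Over all genes 3.44% were higher and 78.3% lower under that scaling. In CD8 T cells 6 fell (Pgk1, Pgam1, Eno1, Eno3, Ldha and Ldhb), 1 rose (Eno2), and Gapdh and Pkm were not called, where 30.7% of all genes fell and 30.2% rose. Their sum was 28086 and 29908 CPM in ILC2s labelled co-cultured, against 18848 and 19581 CPM labelled alone. The CD8 sum was 33793 and 33440 CPM co-cultured, against 40202 and 43779 CPM alone. With all 18 glycolytic enzymes counted, glycolysis took 4.56% and 4.82% of reads in ILC2s labelled co-cultured and 2.58% and 2.65% in those labelled alone, and 4.65% and 4.66% of reads in co-cultured CD8 T cells against 5.35% and 5.82% alone.

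Gapdh, the oxidising step and a gene often used as a reference for RNA amounts, had 4029 and 4392 CPM in ILC2s labelled co-cultured, against 1615 and 1463 CPM in ILC2s labelled alone (log2 change 1.67, SE 0.11, edgeR adjusted p = 1.0e-07; 0.20 and not called scaled to ILC2 markers). It had 3222 and 3771 CPM in co-cultured CD8 T cells, against 3659 and 3905 CPM in CD8 T cells alone and was not called (log2 change -0.19, SE 0.084). Under 5 other settings Gapdh was called lower in CD8 T cells (with at least 1 CPM in every library, with limma-voom, scaled to the T cell marker list, without co-cultured replicate 2 and without alone replicate 1). Its log2 change there was -0.35 scaled to the T cell marker list, and it lay between -0.30 and -0.081 over the alternatives without marker scaling. Pkm, pyruvate kinase, had 9371 and 9713 CPM in ILC2s labelled co-cultured, against 5463 and 5613 CPM in ILC2s labelled alone (log2 change 0.999, SE 0.10, edgeR adjusted p = 3.0e-06; -0.47, a fall, scaled to ILC2 markers). Pkm had 9625 and 9113 CPM in co-cultured CD8 T cells, against 8882 and 10084 CPM in CD8 T cells alone and was not called (-0.10, SE 0.078), but it was called lower scaled to the T cell marker list (-0.25) and without alone replicate 1 (-0.20). Both tables count genes, so the M1 and M2 splice forms of Pkm are not told apart. The fitted fold of Gapdh was 3.17 in ILC2s and 0.875 in CD8 T cells.

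Ldha (chromosome 7, 46841475 to 46855627), which makes lactate, was the member with the largest loss in absolute CPM in CD8 T cells. It had 6841 and 6679.9 CPM in co-cultured CD8 T cells, against 10357 and 11047 CPM in CD8 T cells alone (log2 change -0.74, SE 0.070, edgeR adjusted p = 1.3e-06). It had 5266 and 5869.6 CPM in ILC2s labelled co-cultured, against 4345 and 4867 CPM in ILC2s labelled alone (log2 change 0.49, SE 0.11, edgeR adjusted p = 0.0017), a rise that became a fall scaled to ILC2 markers (-0.98). Its promoter, shown above, holds the core inside both E-boxes and at 1 further place. Ldhb, the subunit that favours the return reaction to pyruvate, was not called in ILC2s with TMM (-0.025, SE 0.16) and lower scaled to ILC2 markers (-1.48). It was lower in CD8 T cells (-0.29, SE 0.092, edgeR adjusted p = 0.015). That CD8 call was lost without co-cultured replicate 1 (-0.26) or alone replicate 1 (-0.27). Pgk1, the first ATP-making step, and Pgam1, the mutase after it, changed by 0.85 and 0.31 on the log2 scale in ILC2s, and by -0.61 and -1.15, both lower, scaled to ILC2 markers. The ILC2 groups of Pgam1 overlapped, and its call was lost without either library labelled co-cultured or without alone replicate 1 (0.20 to 0.33, adjusted p 0.053 to 0.20). Their CD8 changes were -0.57 (SE 0.071) and -0.39 (SE 0.073), both lower. Reads of Pgam1 are shared with the processed copy Pgam1-ps2, counted at 31.8% to 32.5% of Pgam1. Pgk1-rs7 was counted at 3.82% to 4.30% of Pgk1 and Eno1b at 2.15% to 2.54% of Eno1, and how shared reads were split is not given, so the levels of these members are uncertain.

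Enolase makes phosphoenolpyruvate. Eno1, the ubiquitous form, had 6493 and 6913 CPM in ILC2s labelled co-cultured, against 5327 and 5216 CPM in ILC2s labelled alone (log2 change 0.56, SE 0.10, edgeR adjusted p = 3.1e-04; -0.90, a fall, scaled to ILC2 markers). Eno1 had 9824 and 9579.7 CPM in co-cultured CD8 T cells, against 11796 and 12818 CPM in CD8 T cells alone (log2 change -0.42, SE 0.072, edgeR adjusted p = 2.1e-04). Eno2, the neuronal form, was low but rose in CD8 T cells, with 11.8 and 13.9 CPM in co-cultured CD8 T cells, against 4.94 and 5.90 CPM in CD8 T cells alone (log2 change 1.16, SE 0.15, edgeR adjusted p = 2.1e-05). Eno2 had 16.3 and 16.1 CPM in ILC2s labelled co-cultured, against 10.2 and 9.08 CPM in ILC2s labelled alone (log2 change 0.96, SE 0.15; -0.50, a fall, scaled to ILC2 markers). Eno3, the muscle form, had 57.9 and 54.3 CPM in co-cultured CD8 T cells, against 96.9 and 89.5 CPM in CD8 T cells alone (log2 change -0.81, SE 0.077, edgeR adjusted p = 1.3e-06). Eno3 had 34.4 and 28.9 CPM in ILC2s labelled co-cultured, against 47.0 and 40.1 CPM in ILC2s labelled alone, not called with TMM (-0.24, SE 0.15) and lower scaled to ILC2 markers (-1.71). Among the enolases of co-cultured CD8 T cells, the minor neuronal form rose while the ubiquitous and muscle forms fell.

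Pyruvate enters the mitochondrial route through pyruvate dehydrogenase, of which Pdha1 is a catalytic subunit, and the kinases Pdk1 to Pdk3 switch it off. Pdk1 and Pdk2 rose in CD8 T cells. Pdk1, a known HIF target, had 547 and 519.6 CPM in co-cultured CD8 T cells, against 297 and 328 CPM in CD8 T cells alone (log2 change 0.69, SE 0.075, edgeR adjusted p = 4.7e-06). Pdk2 had 32.8 and 30.4 CPM in co-cultured CD8 T cells, against 11.4 and 13.4 CPM in CD8 T cells alone (log2 change 1.26, SE 0.11, edgeR adjusted p = 6.9e-07). Pdk3 fell, with 183 and 191 CPM in co-cultured CD8 T cells, against 219.5 and 227 CPM in CD8 T cells alone (log2 change -0.33, SE 0.070, edgeR adjusted p = 0.0011). Per kilobase, Pdk1 held 46.2% and 44.2% of the 3 kinases in co-cultured CD8 T cells, against 30.0% and 31.2% alone. Pdk1 had 153 and 138 CPM in ILC2s labelled co-cultured, against 104 and 105 CPM in ILC2s labelled alone (log2 change 0.69, SE 0.12, edgeR adjusted p = 4.3e-04; -0.77, a fall, scaled to ILC2 markers). Pdk2 had 18.7 and 20.3 CPM in ILC2s labelled co-cultured, against 9.66 and 7.99 CPM in ILC2s labelled alone (log2 change 1.36, SE 0.15, edgeR adjusted p = 1.1e-05; -0.11 and not called scaled to ILC2 markers). Pdk3 had 80.4 and 81.3 CPM in ILC2s labelled co-cultured, against 97.2 and 99.2 CPM in ILC2s labelled alone, not called with TMM (-0.066, SE 0.12) and lower scaled to ILC2 markers (-1.53). Pdk1 held 34.5% and 31.7% of the set in ILC2s labelled co-cultured, against 24.6% and 24.7% labelled alone. The share of Pdk1 was thus higher in co-cultured libraries of both cell types. Any RNA of other cell types in the ILC2 libraries enters the ILC2 share, and its part was not tested. Pdha1 was not called in either with TMM, at 0.0020 (SE 0.12) in ILC2s and -0.046 (SE 0.072) in CD8 T cells. It was lower in ILC2s scaled to ILC2 markers (-1.46) and in CD8 T cells scaled to the T cell marker list (-0.20).

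**Figure D4:**
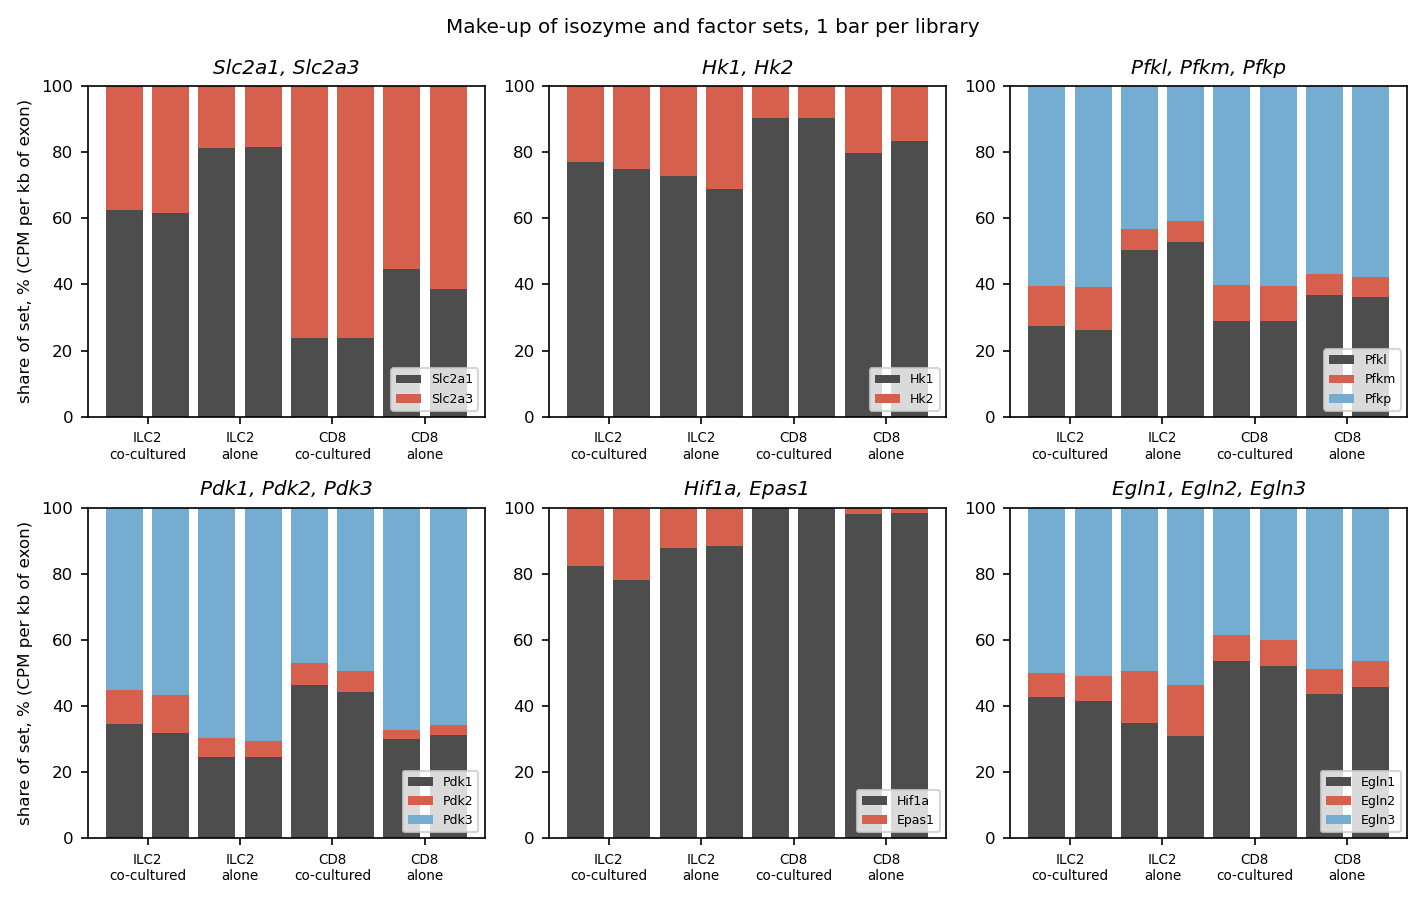
Make-up of 6 isozyme or factor sets in each library, as percent of the set's CPM per kilobase of exon (1 bar per library, co-cultured left of alone in each cell type). Slc2a3 and Pdk1 take more, and Hk2 and Pfkl less, of their set in the co-cultured libraries of both cell types, and Epas1 is near 0 in CD8 T cells. Which member is larger depends on the exon lengths used. Any RNA of other cell types in the ILC2 libraries enters their bars, and its part was not tested.

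Of the 7 HIF control genes 5 rose in CD8 T cells, where 30.2% of all genes rose and 30.7% fell. Hif1a, Arnt, Vhl, Egln1 and Egln2 rose there, Epas1 fell and Egln3 was not called, and their sum was 2479 and 2472 CPM co-cultured, against 1291 and 1378 CPM alone. In ILC2s all 7 were higher with TMM scaling, with a sum of 3470.1 and 3245 CPM labelled co-cultured, against 1809 and 1755 CPM labelled alone. Scaled to ILC2 markers 3 of the 7 stayed higher (Vhl, Egln1 and Egln3), Epas1 was not called and the other 3 were lower. Over all genes in ILC2s, 31.8% were higher and 34.4% lower with TMM, and 3.44% and 78.3% scaled to ILC2 markers.

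Hif1a (chromosome 12, 73901375 to 73947530), the oxygen-regulated subunit found in most cells, had 1080.3 and 1041 CPM in co-cultured CD8 T cells, against 326 and 382 CPM in CD8 T cells alone (log2 change 1.50, SE 0.084, edgeR adjusted p = 2.1e-08). The CD8 groups did not overlap, with a fitted fold of 2.83. It had 1373 and 1076 CPM in ILC2s labelled co-cultured, against 1116 and 1029.9 CPM in ILC2s labelled alone (log2 change 0.41, SE 0.14, edgeR adjusted p = 0.023), a call lost without replicate 1 of the libraries labelled co-cultured (0.15, adjusted p = 0.36) and a fall scaled to ILC2 markers (-1.06). The ILC2 groups of Hif1a overlapped. Epas1 encodes the HIF alpha form best known from endothelium. Epas1 had 281 and 287 CPM in ILC2s labelled co-cultured, against 149 and 129 CPM in ILC2s labelled alone (log2 change 1.25, SE 0.12, edgeR adjusted p = 3.0e-06; -0.21 and not called scaled to ILC2 markers). Epas1 in CD8 T cells was low, with 1.98 and 2.03 CPM in co-cultured CD8 T cells, against 6.44 and 5.97 CPM in CD8 T cells alone (log2 change -1.71, SE 0.17, edgeR adjusted p = 2.4e-06). Per kilobase, Epas1 made up 17.8% and 22.0% of the alpha pair in ILC2s labelled co-cultured, against 12.3% and 11.7% labelled alone. In CD8 libraries it made up 0.193% and 0.205% co-cultured, against 2.04% and 1.62% alone. Arnt, the shared partner subunit, rose in CD8 T cells, with 91.5 and 91.7 CPM in co-cultured CD8 T cells, against 35.3 and 41.0 CPM in CD8 T cells alone (log2 change 1.18, SE 0.089, edgeR adjusted p = 1.9e-07). Arnt had 114 and 109 CPM in ILC2s labelled co-cultured, against 58.0 and 60.5 CPM in ILC2s labelled alone (log2 change 1.13, SE 0.12; -0.34, a fall, scaled to ILC2 markers).

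The brakes on HIF were higher in ILC2s under either scaling for 3 of 4 genes. Egln1, the main oxygen sensor of the family, had 789 and 799 CPM in ILC2s labelled co-cultured, against 186 and 184 CPM in ILC2s labelled alone (log2 change 2.32, SE 0.12, edgeR adjusted p = 1.3e-08; 0.85 scaled to ILC2 markers). Egln1 had 741 and 749 CPM in co-cultured CD8 T cells, against 438 and 471 CPM in CD8 T cells alone (log2 change 0.63, SE 0.071, edgeR adjusted p = 6.2e-06). Egln3, an inducible hydroxylase, had 683 and 726 CPM in ILC2s labelled co-cultured, against 196 and 235 CPM in ILC2s labelled alone (log2 change 1.92, SE 0.13, edgeR adjusted p = 1.5e-07; 0.46 scaled to ILC2 markers). Egln3 had 396 and 427 CPM in co-cultured CD8 T cells, against 363 and 354 CPM in CD8 T cells alone and was not called (0.12, SE 0.071). Vhl, the ubiquitin ligase subunit, had 124 and 133 CPM in ILC2s labelled co-cultured, against 38.4 and 46.1 CPM in ILC2s labelled alone (log2 change 1.81, SE 0.13, edgeR adjusted p = 3.3e-07; 0.35 scaled to ILC2 markers). Vhl had 83.6 and 73.4 CPM in co-cultured CD8 T cells, against 62.0 and 60.2 CPM in CD8 T cells alone (log2 change 0.28, SE 0.081, edgeR adjusted p = 0.0092). That CD8 call was lost without co-cultured replicate 1 (0.19) and when scaled to the T cell marker list (0.12). Egln2, another hydroxylase of the family, had 106 and 116 CPM in ILC2s labelled co-cultured, against 65.9 and 70.4 CPM in ILC2s labelled alone (log2 change 0.92, SE 0.12; -0.55, a fall, scaled to ILC2 markers). Egln2 had 84.7 and 87.2 CPM in co-cultured CD8 T cells, against 59.1 and 64.7 CPM in CD8 T cells alone (log2 change 0.39, SE 0.079, edgeR adjusted p = 8.1e-04). The groups of Egln1 were apart in both cell types, with fitted folds of 4.98 in ILC2s and 1.55 in CD8 T cells.

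Among the 9 other hypoxia targets, 8 were higher in ILC2s with TMM scaling and none lower. Scaled to ILC2 markers, 2 of them stayed higher (Mxi1 and Kdm4b), 3 were not called (Bnip3, Bnip3l and Kdm3a) and 3 were lower (P4ha1, Vegfa and Ak4). In CD8 T cells 4 rose (Mxi1, P4ha1, Kdm3a and Kdm4b), 3 fell (Bnip3, Ak4 and Higd1a), and Bnip3l and Vegfa were not called. Over all genes, 31.8% were higher and 34.4% lower in ILC2s with TMM, and 3.44% and 78.3% scaled to ILC2 markers. The CD8 shares over all genes were 30.2% higher and 30.7% lower.

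Kdm3a and Kdm4b encode histone lysine demethylases that HIF is known to raise. Kdm4b had 201 and 188 CPM in ILC2s labelled co-cultured, against 47.8 and 47.3 CPM in ILC2s labelled alone (log2 change 2.25, SE 0.13, edgeR adjusted p = 3.5e-08; 0.78 scaled to ILC2 markers). Kdm4b had 147 and 158 CPM in co-cultured CD8 T cells, against 55.1 and 66.4 CPM in CD8 T cells alone (log2 change 1.25, SE 0.094, edgeR adjusted p = 2.1e-07). Kdm3a had 175 and 131 CPM in ILC2s labelled co-cultured, against 57.1 and 45.1 CPM in ILC2s labelled alone (log2 change 1.80, SE 0.17, edgeR adjusted p = 3.1e-06; 0.34 and not called scaled to ILC2 markers). Kdm3a had 137 and 122 CPM in co-cultured CD8 T cells, against 79.0 and 81.4 CPM in CD8 T cells alone (log2 change 0.61, SE 0.077, edgeR adjusted p = 1.9e-05). Mxi1, a MAX partner that opposes MYC, had 530.0 and 453 CPM in ILC2s labelled co-cultured, against 149 and 139 CPM in ILC2s labelled alone (log2 change 1.99, SE 0.13, edgeR adjusted p = 1.6e-07; 0.52 scaled to ILC2 markers). Mxi1 had 360.3 and 376 CPM in co-cultured CD8 T cells, against 195 and 219.8 CPM in CD8 T cells alone (log2 change 0.75, SE 0.079, edgeR adjusted p = 3.5e-06). These 3 genes were called higher in CD8 T cells, as were 30.2% of all genes tested.

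Bnip3 and Bnip3l encode mitophagy receptors on the outer mitochondrial membrane. Bnip3 had 900.1 and 964 CPM in ILC2s labelled co-cultured, against 326 and 371 CPM in ILC2s labelled alone (log2 change 1.63, SE 0.12, edgeR adjusted p = 3.1e-07; 0.17 and not called scaled to ILC2 markers). It fell in CD8 T cells, with 757 and 753 CPM in co-cultured CD8 T cells, against 845 and 918 CPM in CD8 T cells alone (log2 change -0.30, SE 0.071, edgeR adjusted p = 0.0025). Bnip3l had 649.6 and 669.6 CPM in ILC2s labelled co-cultured, against 288 and 259 CPM in ILC2s labelled alone (log2 change 1.49, SE 0.12, edgeR adjusted p = 5.1e-07; 0.023 and not called scaled to ILC2 markers). Bnip3l had 619.8 and 663 CPM in co-cultured CD8 T cells, against 585 and 629.6 CPM in CD8 T cells alone and was not called (-0.0020, SE 0.074). Higd1a, a mitochondrial inner membrane protein of the hypoxia response, fell to 87.4 and 86.2 CPM in co-cultured CD8 T cells, against 229 and 224 CPM in CD8 T cells alone (log2 change -1.47, SE 0.069, edgeR adjusted p = 5.0e-09). Higd1a had 51.1 and 63.3 CPM in ILC2s labelled co-cultured, against 55.9 and 59.8 CPM in ILC2s labelled alone, not called with TMM (0.19, SE 0.13) and lower scaled to ILC2 markers (-1.27). P4ha1, a collagen prolyl hydroxylase subunit, had 489 and 489.8 CPM in co-cultured CD8 T cells, against 264 and 278 CPM in CD8 T cells alone (log2 change 0.77, SE 0.069, edgeR adjusted p = 8.7e-07). Its log2 change in ILC2s was 0.47 (SE 0.11) with TMM and -0.999, a fall, scaled to ILC2 markers. Ak4, a mitochondrial adenylate kinase, changed by 0.47 (SE 0.13) in ILC2s (-0.99, a fall, scaled to ILC2 markers) and fell in CD8 T cells (-0.58, SE 0.088). Its ILC2 call was lost without replicate 1 of either ILC2 group (0.31 to 0.43, adjusted p 0.051 to 0.063). Vegfa, the angiogenic growth factor, had 317 and 315 CPM in ILC2s labelled co-cultured, against 299 and 297 CPM in ILC2s labelled alone, a small difference (log2 change 0.30, SE 0.11, edgeR adjusted p = 0.034) that was lost without co-cultured replicate 1 or either library labelled alone (0.23 to 0.30, adjusted p 0.10 to 0.15) and was a fall scaled to ILC2 markers (-1.16). Vegfa in CD8 T cells was not called (0.10, SE 0.079).

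The ILC2 and CD8 responses were set against each other in 1 model of all 8 libraries, testing the difference of the log2 changes, ILC2 minus CD8. The difference was higher for 30 of 44 members and lower for 4, against 21.0% of 15532 genes higher and 32.6% lower, with a median of 0.87 beside -0.12 over all genes. With each cell type scaled to its own marker list, a setting chosen after seeing the data, 9 were higher and 21 lower, where 3.72% of all 15532 genes were higher and 72.3% lower, and the median was -0.25 beside -1.23 over all genes. The 9 that stayed higher were Gpi1, Aldoa, Aldoc, Gapdh, Epas1, Egln1, Egln3, Bnip3 and Higd1a. The 4 lower differences with TMM were those of Slc16a1, Pfkfb4, Hif1a and P4ha1, of which Slc16a1 was not called with DESeq2 size factors (-0.23, adjusted p = 0.17). Epas1 had the highest difference (log2 difference 2.80, SE 0.16, edgeR adjusted p = 5.8e-10), followed by Aldoa (log2 difference 2.02, SE 0.12, edgeR adjusted p = 8.8e-10) and Gpi1 (log2 difference 1.91, SE 0.12, edgeR adjusted p = 2.9e-09). On the other side Hif1a was -1.25 and P4ha1 -0.47 on the log2 scale, both called by edgeR. The share of all genes called in both cell types, in opposite or the same directions, was not counted. With TMM, 31.8% of all genes were higher and 34.4% lower in ILC2s, and 30.2% and 30.7% in CD8 T cells. Called in both cell types and in opposite directions were 12 members. Opposite calls make a called difference likely, and it was called for all 12. In 11 of them ILC2s were higher and CD8 T cells lower: Slc2a1, Hk2, Aldoa, Tpi1, Pgk1, Pgam1, Eno1, Ldha, Epas1, Bnip3 and Ak4. Of these 11 only Aldoa stayed higher in ILC2s scaled to ILC2 markers. The remaining member was Pfkfb4. Called higher in both were 17 members, of which 6 stayed higher in both under the marker scalings of both cell types (Slc2a3, Pfkm, Aldoc, Egln1, Mxi1 and Kdm4b), and none was lower in both. Differences of 5 members were lost when single libraries were left out, with edgeR's log2 differences and adjusted p over the losing fits as follows. Hk1 lost its call without ILC2 co-cultured replicate 1, either ILC2 library labelled alone, CD8 co-cultured replicate 1 or CD8 alone replicate 2 (0.26 to 0.51, adjusted p 0.059 to 0.27). Pfkfb3 lost it without any library except ILC2 co-cultured replicate 2 (0.24 to 0.38, adjusted p 0.085 to 0.16). Eno3 lost it without any library except ILC2 co-cultured replicate 2 and ILC2 alone replicate 1 (0.22 to 0.45, adjusted p 0.082 to 0.25). Egln2 lost it without ILC2 co-cultured replicate 2, ILC2 alone replicate 1, either co-cultured CD8 library or CD8 alone replicate 2 (0.27 to 0.38, adjusted p 0.073 to 0.19). Slc16a1 lost it without replicate 2 of any group or CD8 alone replicate 1 (-0.37 to -0.30, adjusted p 0.079 to 0.16).

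Genes outside the 44 that share the pathway were counted from lists by function. Each count with TMM stands beside the 31.8% of all genes higher and 34.4% lower in ILC2s or the 30.2% higher and 30.7% lower in CD8 T cells, and each count scaled to ILC2 markers beside 3.44% higher and 78.3% lower. Of 28 other glycolysis and glycogen genes tested in ILC2s 15 were higher and 7 lower with TMM, and 5 and 18 scaled to ILC2 markers. The CD8 counts were 15 higher and 8 lower of 27. Txnip, which restrains glucose uptake, was higher in both, at 3.53 in ILC2s (2.06 scaled to ILC2 markers) and 1.56 in CD8 T cells on the log2 scale. Slc2a6, a lysosomal hexose carrier, was lower in both, at -3.70 and -1.42. Gbe1, the glycogen branching enzyme, was higher in ILC2s under either scaling (2.29 and 0.83), and Pygl, a glycogen phosphorylase, rose in CD8 T cells (1.49).

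In ILC2s 7 of 9 genes of pyruvate dehydrogenase and mitochondrial pyruvate were lower and none higher with TMM, where 34.4% of all genes were lower and 31.8% higher. They included Pdhx at -1.52 and Dlat at -0.89, which encode subunits of the complex. In CD8 T cells, where 30.7% of all genes were lower and 30.2% higher, 7 of 9 were lower and 2 higher, with Mpc2, a subunit of the pyruvate carrier, at -0.96 and Pdhx at -0.78, and with Pcx, pyruvate carboxylase, at 1.16. Of 20 tricarboxylic acid cycle genes 13 were lower and 2 higher in ILC2s, and 11 lower and 4 higher in CD8 T cells, with Idh3a, a subunit of the cycle's isocitrate dehydrogenase, at -2.22 and -0.74. Of 10 pentose phosphate pathway genes 5 were lower and none higher in ILC2s, including G6pdx, its entry enzyme, at -1.64. The CD8 counts for this list were 8 lower and none higher. Scaled to ILC2 markers, 9, 20 and 9 genes of these lists were lower in ILC2s and none higher, where 78.3% of all genes were lower and 3.44% higher.

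The HIF complex and regulator list (20 genes without the members) had 9 higher and 6 lower in ILC2s (2 and 17 scaled to ILC2 markers), and 3 higher and 10 of 19 lower in CD8 T cells. The shares over all genes were 31.8% higher and 34.4% lower in ILC2s (3.44% and 78.3% scaled to ILC2 markers), and 30.2% higher and 30.7% lower in CD8 T cells. Among the higher genes of this list, Os9 was at 1.899 in ILC2s (0.43, still higher, scaled to ILC2 markers) and 0.53 in CD8 T cells. Nfkb1 was at 1.27 in ILC2s (-0.19 and not called scaled to ILC2 markers), and Arntl was at 0.92 in CD8 T cells. Among the lower genes, Hsp90aa1, a chaperone of HIF alpha subunits, was at -1.14 in ILC2s. Elob and Rbx1, subunits of the VHL ligase complex, were at -1.21 and -1.11 in CD8 T cells. Further hypoxia targets had 21 of 37 higher and 14 lower in ILC2s (8 and 24 scaled to ILC2 markers), and 15 of 34 higher and 9 lower in CD8 T cells. Ero1l, an oxidase of the endoplasmic reticulum, had 12863 and 11137 CPM in ILC2s labelled co-cultured, against 1049.7 and 1085 CPM in ILC2s labelled alone (log2 change 3.71, SE 0.13, edgeR adjusted p = 6.1e-10; 2.24 scaled to ILC2 markers). Its level in CPM in the libraries labelled co-cultured was above that of any of the 44 members. Ero1l was lower in co-cultured CD8 T cells than in those alone (log2 change -0.52, SE 0.072, edgeR adjusted p = 3.8e-05). In the same list Pgf, a placental growth factor, was lower in ILC2 libraries labelled co-cultured (-7.23), at 0.21 and 0.33 CPM against 44.7 and 49.9 CPM labelled alone. Angptl4, a secreted regulator of lipoprotein lipase, was lower there too (-3.86), at 8.71 and 9.44 against 147 and 158 CPM. The libraries labelled alone also held more RNA of the stroma and epithelium list, and its part in these differences was not tested. In CD8 T cells Stc2, a secreted stanniocalcin, fell (-3.85), while Rora and Ppp1r3b rose (1.57 and 1.54). The MYC and mTORC1 list, other known inputs to these genes, had 10 of 20 higher and 5 lower in ILC2s (1 and 16 scaled to ILC2 markers), and 9 of 19 higher and 3 lower in CD8 T cells. Mxd1, a MYC antagonist of the same family as Mxi1, rose in CD8 T cells (2.12). Myc was lower in ILC2s (-1.76), while its paralog Mycn was higher under either scaling, with 45.1 and 50.9 CPM in ILC2s labelled co-cultured, against 6.17 and 5.49 CPM in ILC2s labelled alone (log2 change 3.25, SE 0.15, edgeR adjusted p = 5.5e-09; 1.79 scaled to ILC2 markers). Rictor, a subunit of mTOR complex 2, was at 1.39 with TMM and -0.075 scaled to ILC2 markers.

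**Figure D5:**
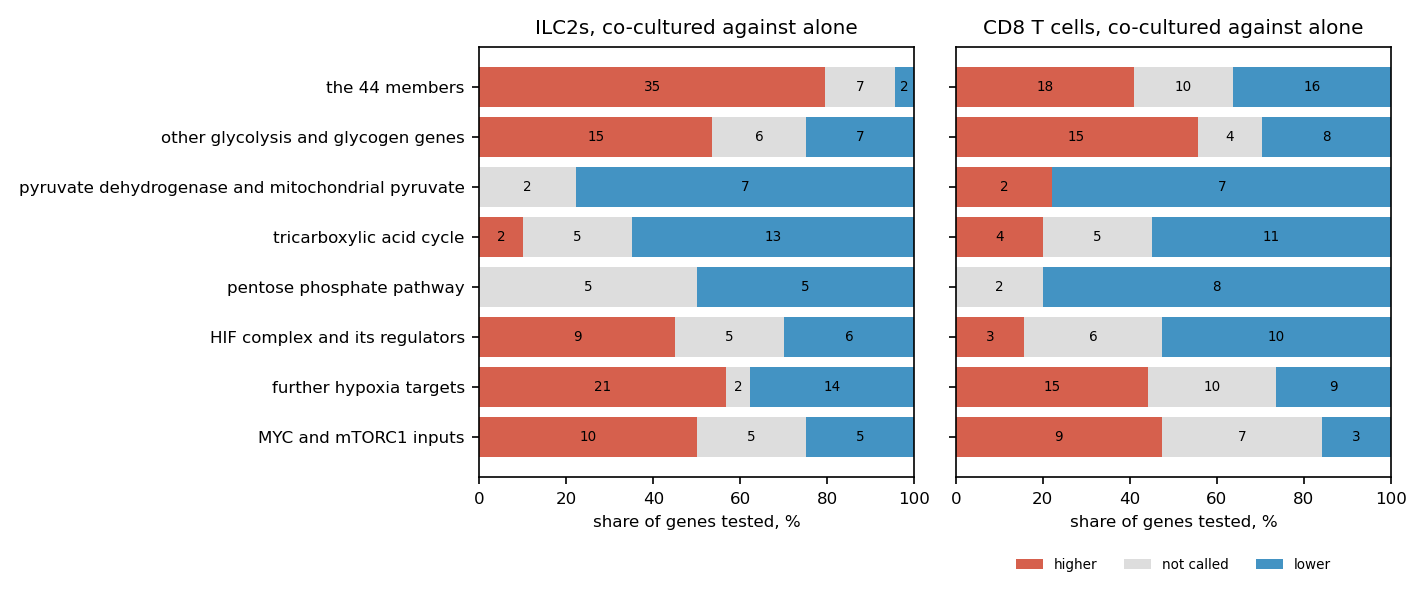
Share of genes tested that were higher, not called or lower (TMM scaling, edgeR), for the 44 members and 7 further lists, in ILC2s on the left and CD8 T cells on the right; numbers are gene counts. The members have the largest higher share among the 8 bars in ILC2s (35 of 44, but 10 of 44 scaled to ILC2 markers). The tricarboxylic acid cycle, pyruvate and pentose bars have 13, 7 and 5 genes lower in ILC2s and 11, 7 and 8 in CD8 T cells.

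Exons of 10 members overlap a gene on the other strand in the GENCODE annotation of GRCm38 (Slc2a1, Hk1, Gpi1, Pfkp, Gapdh, Pdha1, Hif1a, Bnip3, Mxi1 and Higd1a), and those of Hif1a, Pfkm and Pkm overlap a gene on the same strand. As the strand setting of the counting is not given in the sources used here, reads of those pairs cannot be told apart.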

How the data were processed

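Bulk RNA of 8 libraries (ILC2s and CD8 T cells, co-cultured or alone, 2 each) was analysed. The authors deposited whole-number read counts per gene symbol in a table for each cell type. Trizol extraction and SMART-Seq v4 libraries are per the labels' protocols. Tools in the submitters' processing notes are StringTie 2.1.3b, SAMtools 1.9, HISAT2 2.1.0 and Trimmomatic 0.38, with the build mm10. For their roles, the annotation and the strand and multi-mapping settings, details were not given in the sources used here. Every deposited count is at least 1, so a gene with 0 reads in any library of a table is not in it.

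CPM were counts over library totals (48072595 to 67076905 reads). Replicates were not duplicates (chi-square of 16.7 to 34.2 per gene; Pearson's r across genes 0.9926 to 0.9966). Each cell type, and the difference between them over 16226 shared symbols, was fitted by the quasi-likelihood F test of edgeR 4.0.16 (R 4.3.3) after filterByExpr and TMM, with Benjamini-Hochberg adjustment and a threshold of 0.05, and was checked on simulated counts. SE is the log2 change over the square root of F. Alternatives were DESeq2 1.42.0 (its test and its size factors), limma-voom 3.58.1, library totals, filters, marker scaling, a replicate block and leaving out libraries. Positions and exon lengths are from GENCODE M21, promoters from RefSeq (GRCm38.p6). Exon length is the union of a gene's annotated exons, including those of transcripts that may not be expressed. Members, gene lists and markers were chosen with earlier results of these data known. Values in every library are given for members called with an absolute log2 change of at least 1 in either cell type and their isozymes. Of each pathway list the 2 largest rises and falls qualified if their mean log2 CPM reached 4, and the text names some of them.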

Additional observations from a re-analysis of the deposited data

Results flagged for a closer look

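The difference between the ILC2 and CD8 responses was called by the interaction test of edgeR for 34 of the 44 genes, which marked them for a closer look. Differences are log2, ILC2 minus CD8, TMM scaling, beside a median of -0.12 over all genes. They were positive for the glucose transporters and the first enzymes: Slc2a1 1.11, Slc2a3 1.36, Hk1 0.47, Hk2 1.11, Gpi1 1.91, Pfkm 1.06, Pfkp 1.35, Pfkfb3 0.36, Aldoa 2.02, Aldoc 1.64. They were positive for the later enzymes: Tpi1 0.70, Gapdh 1.70, Pgk1 1.27, Pgam1 0.55, Eno1 0.82, Eno3 0.41, Pkm 0.94, Ldha 1.07. Among HIF control genes and targets the positive differences were Epas1 2.80, Vhl 1.37, Egln1 1.53, Egln2 0.36, Egln3 1.64, Bnip3 1.78, Bnip3l 1.33, Mxi1 1.08, Kdm3a 1.03, Kdm4b 0.84, Ak4 0.89, Higd1a 1.50. Negative differences were Pfkfb4 -2.98, Hif1a -1.25, P4ha1 -0.47, Slc16a1 -0.35. With each cell type scaled to its marker list, 9 of the 30 positive differences stayed positive and called, where 3.72% of all genes were higher and 72.3% lower.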

How the results depend on the processing

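The lowest member level was 1.98 CPM, and each group had 2 libraries. The ILC2 direction depends on scaling. Scaled to the ILC2 marker list, 575 genes were higher and 13103 lower (4.20% of calls higher, against 48.0% with TMM), with 10 members higher and 25 lower, and these members turned negative: Slc2a1 -0.59, Hk1 -0.29, Hk2 -0.68, Pfkl -1.34, Pfkfb3 -0.23, Tpi1 -1.10, Pgk1 -0.61, Pgam1 -1.15, Eno1 -0.90, Eno2 -0.50, Pkm -0.47, Ldha -0.98, Pdk1 -0.77, Pdk2 -0.11, Pdha1 -1.46, Hif1a -1.06, Epas1 -0.21, Arnt -0.34, Egln2 -0.55, P4ha1 -0.999, Vegfa -1.16, Ak4 -0.99, Higd1a -1.27. Scaled to library totals, 38.3% of ILC2 calls were higher, with a median of -0.22 over all genes, 30 members higher and 4 lower; in the fit of all 8 libraries 4 were lower as well. With 1 library left out, 31 to 34 members were higher in ILC2s and 1 to 3 lower (3 without co-cultured replicate 1, 1 without co-cultured replicate 2 or alone replicate 2). In CD8 T cells scaled to the T cell list, 38.1% of calls were higher against 49.5%, and under every setting run 17 to 19 members were higher and 14 to 22 lower. With each cell type scaled to its marker list (chosen after seeing the data), the difference was higher for 578 genes and lower for 11223 (9 and 21 members), and these log2 differences turned negative: Slc2a1 -0.00084, Hk1 -0.64, Pfkl -0.83, Pfkm -0.045, Pfkfb3 -0.75, Tpi1 -0.41, Pgam1 -0.56, Eno1 -0.29, Eno3 -0.70, Pkm -0.17, Ldha -0.040, Ldhb -0.996, Pdk3 -1.001, Egln2 -0.75, Mxi1 -0.034, Vegfa -1.07, Kdm3a -0.076, Kdm4b -0.27, Ak4 -0.22. With library totals the difference was higher for 26 members and lower for 7, with 29.0% of calls higher against 39.2%, and with DESeq2 size factors 46.9% were higher. The cause of these changes beyond the scaling itself was not tested. Replicate numbers do not show pairing (same-number deviations correlated at 0.026 in CD8 T cells and 0.091 in ILC2s). A replicate block gave 35 and 2 members (5295 and 5761 genes) in ILC2s, 18 and 16 members (4817 and 4915 genes) in CD8 T cells, and 30 and 4 members (3306 and 5149 genes) for the difference, higher and lower. Where 1 library of a group was left out, the lone one is assumed to vary like the other group.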
